A study of Drosophila melanogaster with 2 samples.

Results

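The H3T3ph enriched regions described here are those on U, the sequence of the dm3 assembly that holds pieces of the fly genome without a place on a chromosome arm. They are all rows of the deposited list whose sequence is named U, leaving out the separate sequence Uextra, which makes 897 of 6387 regions, or 14.0% of the list (95% Wilson interval from 13.2 to 14.9%). The list comes from ChIP-seq in S2 cells, an embryonic *Drosophila melanogaster* cell line, and compares 1 library of DNA immunoprecipitated (IP) with a rabbit antibody against H3T3ph with 1 library of input DNA. The labels name no treatment or mutation of the cells, and the libraries do not separate cells in mitosis from cells in interphase. There was no second library of either kind. No value could thus be checked against a replicate, and p-values are not given. The IP library had 21013056 reads and the input library 23747069 reads. Intervals on read ratios are at the 95% level. They reflect counting alone, and copies made by PCR were not marked by molecular identifiers.

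H3T3ph is histone H3 phosphorylated at threonine 3 by the kinase haspin. In dividing cells the mark is known from the centromeres, where it helps to recruit the chromosomal passenger complex. Heterochromatin next to the centromeres of fly chromosomes is rich in transposons and satellite repeats, and much of it is hard to assemble. In dm3 a part of the assembled heterochromatin that could be given to a chromosome forms the scaffolds whose names end in Het, while U and Uextra join pieces that could not be placed. The order of the pieces on U is therefore not an order along a chromosome, and 2 neighboring regions may lie on different pieces. The arms compared below are 2L, 2R, 3L, 3R and X, with their euchromatin and pericentromeric parts not separated. Listed regions on any other sequence count only toward the whole list. The question asked of U was how its regions are grouped, how wide they are, and how strongly they are enriched beside the Het scaffolds and Uextra.

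Enriched regions on U were concentrated toward its beginning. This was not particular to U, since 224 of the 284 regions on Uextra (78.9%) lay in the first Mb of Uextra. Of the 897 regions on U, 334 lay in the first Mb (37.2%), 218 in the second, 150 in the third and 94 in the fourth. This border was set with the data in view, and the first 3 Mb held 78.3% of the regions, and the remaining 6.96 Mb held 195 regions. The density was 234 regions per Mb in the first 3 Mb and 28.0 regions per Mb in the rest. From 6 Mb onward no bin of 1 Mb had more than 16 regions, and the last bin had 5. Regions also became narrower, with a median width of 261 bp in the first 3 Mb and 160 bp beyond. Of the 66 regions wider than 1600 bp, 60 lay in the first 3 Mb. The 3 longest stretches without a region were 420.3 kb from 4794241 to 5214581, 371.7 kb from 7315293 to 7687035, and 329.8 kb from 6964122 to 7293924.

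**Figure D1:**
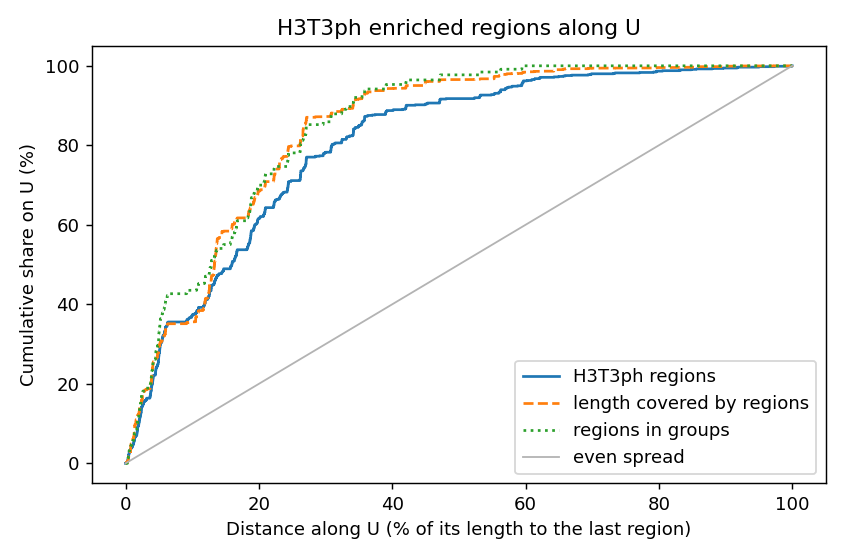
Cumulative share (%) of the H3T3ph regions on U, of the length they cover and of the regions in groups, against the distance along U in % of its length up to the last region; the gray line marks an even spread. All 3 curves rise steeply at the beginning, where the first 3 Mb hold 78.3% of the regions and 87.2% of the covered length.

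The enrichment was also compared along U. The ratio of IP to input, each scaled to the reads of its library, was compared within classes of width, named by their lower and upper border with the upper one included, because narrow regions pass the threshold of the list only with a large ratio. Beyond 3 Mb it was 1.01 times that of the first 3 Mb (interval from 0.989 to 1.04), a difference not detectable at this depth. With the border at 4 Mb it was 1.04 times (interval from 1.001 to 1.07), so that the call depends on the border. The classes were not alike. From 50 to 200 bp the ratio was 2.78 in the first 3 Mb (262 regions, interval from 2.68 to 2.87) and 3.08 beyond (94 regions, interval from 2.91 to 3.26). In regions wider than 1600 bp it was 1.84 (60 regions, interval from 1.82 to 1.87) and 1.89 (6 regions, interval from 1.81 to 1.98), with overlapping intervals. The input RPKM, reads scaled to region width and to library size, was 1.07 times as high beyond 3 Mb at equal width (interval from 1.05 to 1.09).

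Over its whole length, taken as the 9.96 Mb up to the end of the last region, U had 90.0 regions per Mb. The Het scaffolds had 2471 regions over 8.86 Mb, or 278.9 regions per Mb, so the density of U was 0.323 times theirs (interval from 0.299 to 0.349). Against the 9.85 regions per Mb of Uextra, with 284 regions over 28.8 Mb, the density of U was 9.14 times as high (interval from 7.99 to 10.5). These intervals treat regions as independent, which neighbors are not. Enriched regions covered 4.50% of the length of U, 18.5% of the Het scaffolds and 0.318% of Uextra. Only reads with a single placement were kept by the authors, and the share of each sequence that such reads can reach was not measured here.

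Neighboring regions on U lay close together. The median of the 896 gaps was 487.5 bp, with quartiles of 66.75 and 2292 bp and a range from 1 to 420339 bp. Gaps of at most 50 bp, the length of a read, made up 22.1% (198 gaps), so that many neighboring regions are interrupted by less than a read. The shorter gaps resembled those of the Het scaffolds, where the median was 397.5 bp, 23.4% were at most 50 bp and the lower quartile was 59 bp. Long gaps were more frequent on U. Gaps over 25 kb were 7.81% of all gaps on U (70 gaps, 95% Wilson interval from 6.23 to 9.76%), against 2.03% on the Het scaffolds (50 gaps, interval from 1.54 to 2.66%) and 20.1% on Uextra (57 gaps, interval from 15.9 to 25.2%). On Uextra the median gap was 1470 bp.

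**Figure D2:**
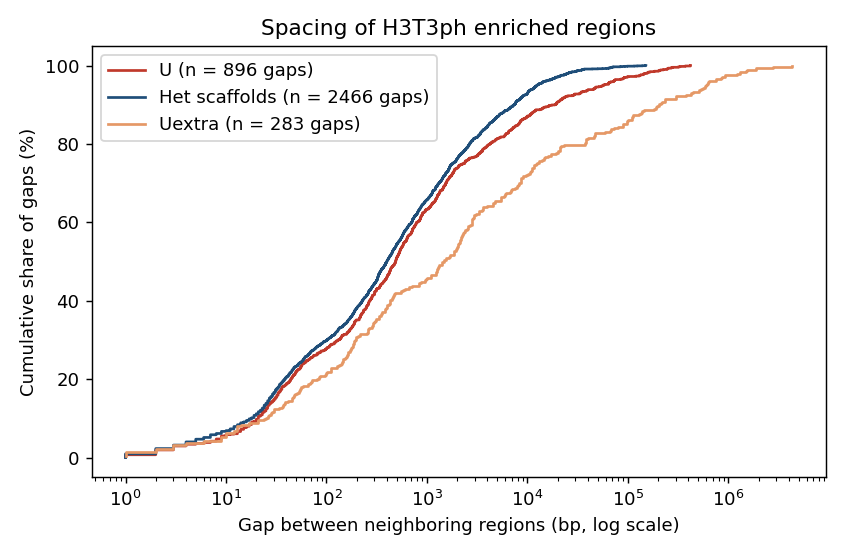
Cumulative share (%) of gaps against gap length in bp (log scale) for U (896 gaps), the Het scaffolds (2466 gaps) and Uextra (283 gaps). The curve of U runs near that of the Het scaffolds up to about 1 kb and bends below it at long gaps, while Uextra lies to the right of both, with medians of 487.5, 397.5 and 1470 bp.

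When regions with gaps of at most 500 bp were joined, the 897 regions became 440 stretches. Of these, 181 stretches held 638 of the regions and 259 were single regions. The stretches with the most regions had 15 each, from 2613624 to 2621641 and from 2697723 to 2704303. Regions covered 81.2% of the first and 89.5% of the second. Their ratios were 1.81 and 2.19. Both were picked with their values in view.

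Regions were counted as a group where 5 or more followed each other with gaps of at most 5 kb. U had 55 groups, which held 703 regions, or 78.4% (95% Wilson interval from 75.6 to 80.9%). The share was 86.5% on the Het scaffolds (interval from 85.1 to 87.8%) and 59.5% on Uextra (interval from 53.7 to 65.1%). With gaps of at most 1 kb the share on U fell to 46.2%, and with regions joined first it fell to 43.4%. Groups on U had between 5 and 51 regions, with a median of 10, and spanned from 1.44 to 55.6 kb (median 11.9 kb). Regions covered from 4.42 to 94.0% of a group, with a median of 38.3%. Of the 55 groups, 43 ended within the first 3 Mb, and the last ended at 5929665. On Uextra the 10 groups all ended by 332826.

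The group with the most regions ran from 362332 to 416282. Its 51 regions covered 57.1% of 53.95 kb, with 9700 IP and 5138 input reads and a ratio of 2.13 (interval from 2.06 to 2.21). The second ran from 488841 to 524341 with 47 regions that covered 37.6% of it, 4642 IP and 2247 input reads and a ratio of 2.33 (interval from 2.22 to 2.46). Both had a higher ratio than the rest of U at equal width, by 1.12 times (interval from 1.08 to 1.16) and 1.11 times (interval from 1.06 to 1.17). Their input RPKM was lower, at 0.723 times the rest of U in the first (interval from 0.703 to 0.743) and 0.828 times in the second (interval from 0.793 to 0.864). How far the low input accounts for the ratio was not tested.

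The third group, from 190554 to 239500, had 44 regions and a ratio of 1.93 (interval from 1.85 to 2.02). At equal width it could not be told from the rest of U, at 0.971 times (interval from 0.930 to 1.01). The fourth, from 1856322 to 1880747, had 28 regions and a ratio of 2.19, which was 1.06 times the rest of U at equal width (interval from 0.992 to 1.14). The fifth, from 2415418 to 2438599, had 24 regions and a ratio of 1.99, or 1.02 times the rest (interval from 0.970 to 1.07). Of these 5 groups, the first and second stood above the rest of U beyond counting error.

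Regions outside groups were narrower, with a median width of 138 bp for 194 regions, against 260 bp for the 703 in groups. At equal width their ratio was 0.968 times that of regions in groups (interval from 0.948 to 0.989) and their input RPKM was 1.03 times as high (interval from 1.02 to 1.05). Regions in groups and outside them therefore differed by a few percent in ratio and more in width.

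The regions on U were between 1 and 7238 bp wide. The median was 236 bp (95% interval of the median from 211 to 260 bp) and the quartiles were 111 and 503 bp. The median was 338 bp on the Het scaffolds (interval from 320 to 356 bp) and 162 bp on Uextra (interval from 125 to 198 bp), so that U lay between the 2 and none of the intervals overlapped. Among the Het scaffolds the closest medians were 264.5 bp on 3RHet and 261 bp on 2LHet. The class from 50 to 200 bp was the most frequent on U, with 356 regions or 39.7%, against 29.0% on the Het scaffolds. The 66 regions wider than 1600 bp were 7.36% of the regions, and they held 40.0% of the covered length and 40.7% of the IP reads on U.

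The widest region ran from 1339760 to 1346997, with 2508 IP and 1613 input reads and a ratio of 1.76 (interval from 1.65 to 1.87). The next, from 2645441 to 2651965, was 6525 bp wide and had 3138 IP and 1875 input reads, a ratio of 1.89 (interval from 1.79 to 2.004). The third, from 1315376 to 1321579, lay in the same group as the widest and had a ratio of 1.72. The fourth, from 1434405 to 1440401, had the highest ratio of the 5, 2.07 (interval from 1.93 to 2.23), with the lowest input RPKM, 7.95. The fifth, from 2296214 to 2300799, had a ratio of 1.72 and an input RPKM of 11.9. The IP RPKM of these 5 regions stayed between 16.5 and 22.9.

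Pooled over all regions, U had 172262 IP and 99887 input reads and a ratio of 1.95 (interval from 1.93 to 1.96). The ratio was 14.2 in regions of at most 50 bp (42 regions, interval from 10.4 to 19.7) and 2.86 from 50 to 200 bp (356 regions, interval from 2.78 to 2.94). From 200 to 400 bp it was 2.06 (216 regions, interval from 2.01 to 2.10). From there on it hardly changed. It was 1.89 from 400 to 800 bp (148 regions, interval from 1.85 to 1.92), 1.85 from 800 to 1600 bp (69 regions, interval from 1.81 to 1.88) and 1.85 above 1600 bp (66 regions, interval from 1.82 to 1.87). In these 3 classes the Het scaffolds fell from 1.79 to 1.71 and 1.65, and the arms from 1.59 to 1.44 and 1.32. Uextra resembled U, with 1.95, 1.98 and 1.88, and on 3RHet the ratio was 1.93, 1.80 and 1.79. The ratio of U relative to the Het scaffolds was therefore larger in the wider classes. Narrow regions pass the threshold of the list only with a large ratio, on whichever sequence they lie. The classes thus cannot show whether the difference itself changes with width. In the class from 200 to 400 bp the ratio of U was 1.02 times that of the Het scaffolds (interval from 0.997 to 1.05), where the difference was not detectable at this depth. It rose to 1.05 times (interval from 1.03 to 1.07), 1.08 times (interval from 1.06 to 1.10) and 1.12 times (interval from 1.11 to 1.14) in the next 3 classes.

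**Figure D3:**
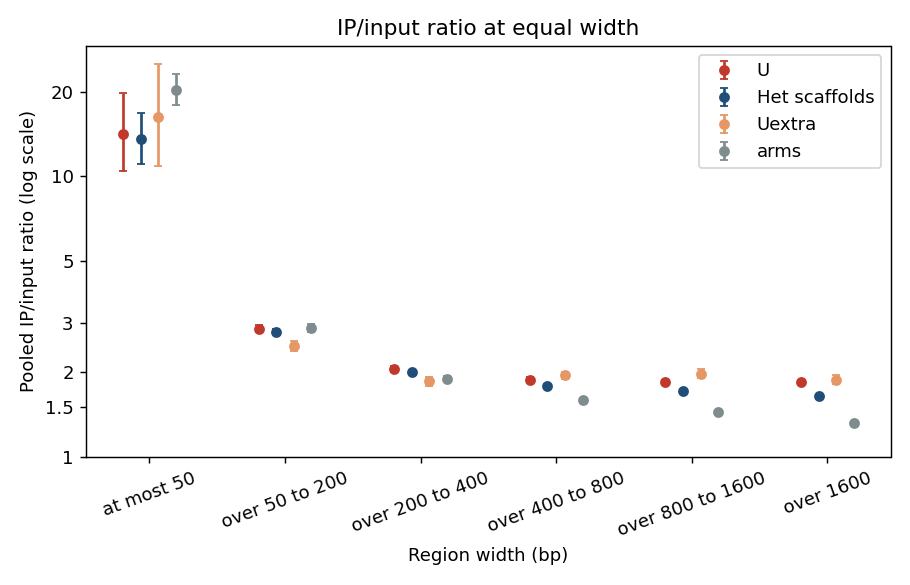
Pooled IP/input ratio (log scale) in 6 classes of region width (bp) on U, the Het scaffolds, Uextra and the arms; points are pooled reads and bars 95% exact intervals. From 400 bp upward U stays between 1.85 and 1.89, and Uextra between 1.88 and 1.98, while the Het scaffolds fall to 1.65 and the arms to 1.32.

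Weighted over the 6 classes by the covered length of U, the ratio on U was 1.08 times that of the Het scaffolds (interval from 1.07 to 1.09). The Het scaffolds were not alike in this. U had 1.21 times the ratio of 2LHet (interval from 1.18 to 1.24), 1.12 times that of 3LHet (interval from 1.10 to 1.13) and 1.09 times that of 2RHet (interval from 1.08 to 1.10). Against 3RHet, which had 888 regions, it was 1.004 times (interval from 0.993 to 1.02). In regions wider than 1600 bp U was 1.03 times 3RHet (interval from 1.01 to 1.05). XHet had 36 regions, and U was at 1.11 times its ratio (interval from 1.05 to 1.18). Only 1 region of XHet and 3 regions of 2LHet were wider than 1600 bp, the class of greatest weight. The averages against these 2 scaffolds thus lean on few regions. Against the arms, the ratio of U was 1.25 times as high at equal width (interval from 1.24 to 1.26).

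The lowest ratio among the 66 regions of U wider than 1600 bp was 1.52. None was thus under 1.5, a border close to that lowest value and chosen with earlier results of these data known. The absence on U depends on where the border lies. It allows a share of up to 4.55% by a floor of 3 counts and 5.50% by the Wilson interval. Both bounds treat regions as independent, though all share the same libraries. Uextra also had none under 1.5, among only 8 regions wider than 1600 bp, with a lowest ratio of 1.68. On the Het scaffolds 71 of 268 such regions were under 1.5, or 26.5% (95% Wilson interval from 21.6 to 32.1%), and the share was 16.7% on 3RHet (10 of 60 regions) and 33.0% on 3LHet (33 of 100 regions). In the arms it was 85.7% (466 of 544 regions). At the upper end, the highest ratio of a wide region was 2.62 on U, 2.51 on the Het scaffolds, 2.18 on Uextra and 5.08 in the arms. The ratios of the wide regions of U had an SD of 0.15 on the log2 scale, against a median counting error of 0.08, so that they differed by more than counting error. The SD on the Het scaffolds was 0.23.

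With a ratio of at least 2 as the call, 613 of the 897 regions on U were called, or 68.3% (95% Wilson interval from 65.2 to 71.3%), where regions with no input read were set against a floor of 3 reads. Over the whole list 47.5% were called. The share depends on width, and the comparison was made within classes. In regions wider than 1600 bp it was 22.7% on U (15 of 66, interval from 14.3 to 34.2%) and 5.39% over the list, to which the arms add most regions. It was 12.3% on the Het scaffolds (33 of 268, interval from 8.90 to 16.8%) and applied to 2 of 8 regions on Uextra (interval from 7.15 to 59.1%). From 800 to 1600 bp it was 33.3% on U (23 of 69, interval from 23.4 to 45.1%) and 8.84% over the list, with 17.4% on the Het scaffolds (55 of 316, interval from 13.6 to 22.0%) and 42.9% on Uextra (6 of 14, interval from 21.4 to 67.4%). From 50 to 200 bp the shares were 96.9% on U (345 of 356) and 96.1% over the list. Regions this narrow pass the threshold of the list only with a large ratio, so these shares say little about U. Over all widths, 70.4% were called on Uextra (200 of 284), 69.6% on 3RHet (618 of 888) and 66.7% on XHet (24 of 36). The share of U was thus not particular to it. On 2LHet, 2RHet and 3LHet the shares were 44.8, 45.0 and 39.7%.

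At equal width the ratio on U was 1.001 times that of Uextra (interval from 0.981 to 1.02), but this average joins classes of opposite sign. By pooled reads U was higher from 50 to 200 bp, by 1.15 times (interval from 1.10 to 1.21), and in the next class, by 1.11 times (interval from 1.06 to 1.15). The medians over regions with input reads lay closer, at 3.10 on U and 2.98 on Uextra, and at 2.08 and 2.06 in the next class. U was lower from 400 to 800 bp, at 0.967 times (interval from 0.936 to 0.999), where Uextra had 46 regions. These include the region of Uextra from 5224034 to 5224434, with 541 IP and 10 input reads. Whether U is lower in this class without that region was not tested. The medians in the class were 1.89 on U and 1.93 on Uextra. U was also lower from 800 to 1600 bp, at 0.934 times (interval from 0.896 to 0.974), where Uextra had only 14 regions. Above 1600 bp it could not be told from the 8 regions of Uextra.

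The input depth of U was near the average of the Het scaffolds, which differed among themselves. The median input RPKM of a region was 7.21 on U, with quartiles of 5.24 and 9.29, and 7.86 on the Het scaffolds, with quartiles of 5.84 and 9.92. At equal width the input of U was 0.978 times that of the Het scaffolds (interval from 0.971 to 0.985), and without the group with the most regions it was 0.996 times (interval from 0.988 to 1.003). In regions wider than 1600 bp, where the ratio differed most, the input RPKM was 10.1 on U and 10.8 on the Het scaffolds and the IP RPKM was 18.6 and 17.7. The wide regions of U thus had both somewhat fewer input reads and somewhat more IP reads per kb. By scaffold, the input of U was 0.721 times that of 2LHet (interval from 0.707 to 0.735), 0.928 times that of 3LHet (interval from 0.920 to 0.936) and 0.966 times that of 2RHet (interval from 0.957 to 0.974). It was 1.09 times that of 3RHet (interval from 1.08 to 1.10) and 1.24 times that of XHet (interval from 1.18 to 1.30). The average against XHet joins classes of opposite sign. In the classes from 50 to 1600 bp the input of U was between 1.45 and 1.77 times that of XHet. Above 1600 bp, where XHet had 1 region, it was 0.909 times.

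Uextra had regions of much higher input depth. At equal width the pooled input of U was 0.861 times that of Uextra (interval from 0.847 to 0.875), while with the median over regions in place of pooled reads it was 1.09 times. A small number of regions set the pooled value. On Uextra 27 of 284 regions had an input RPKM of at least 20, and they held 36.0% of its input reads in listed regions. On U 11 of 897 regions did, with 3.55% of the input reads. The ratio in these regions of high input was 1.71 on U (interval from 1.64 to 1.78) and 1.75 on Uextra (interval from 1.70 to 1.80).

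**Figure D4:**
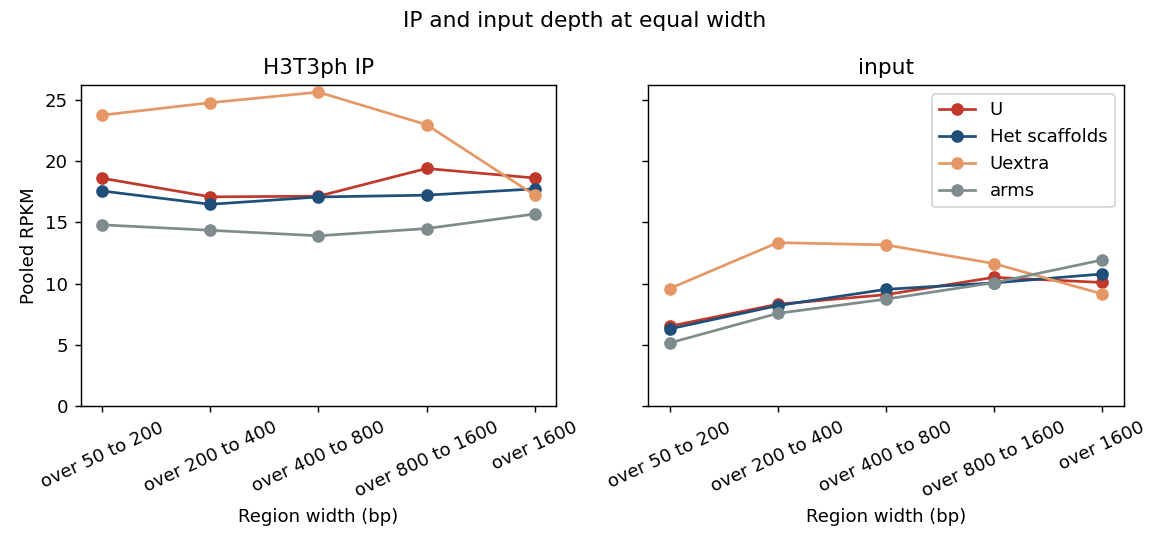
Pooled RPKM of the H3T3ph IP (left) and the input (right) in 5 classes of region width (bp) above 50 bp on U, the Het scaffolds, Uextra and the arms. U and the Het scaffolds lie close together in both panels, and Uextra is above both up to 1600 bp, with an input RPKM of 13.4 against 8.31 on U from 200 to 400 bp.

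Among the 285 regions of U that were at least 400 bp wide, the input RPKM ranged from 4.50 to 49.6 and the IP RPKM from 9.84 to 86.1, while the ratio stayed between 1.41 and 2.99. IP and input RPKM rose together across these regions (Pearson's r 0.95, Spearman's rho 0.83), and without the 2 regions farthest from the median input r was 0.89. The points share both libraries, and a region was listed only with more IP than input, so the correlation is a description.

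Among the regions of U at least 400 bp wide, the 2 highest input RPKM belonged to regions of 1 group. A narrower region, from the class of 50 to 200 bp, reached an input RPKM of 51.8. The region from 1091612 to 1092413 had 1451 IP and 944 input reads, an input RPKM of 49.6 and a ratio of 1.74 (interval from 1.60 to 1.89). The region from 1089292 to 1090348 had 1641 IP and 1100 input reads, an input RPKM of 43.8 and a ratio of 1.69 (interval from 1.56 to 1.82). Between them the regions from 1090883 to 1091066 and from 1091076 to 1091191 had an input RPKM of 28.6 and 10.9. In the same group the region from 1085004 to 1086326 had an input RPKM of 11.8 and a ratio of 1.73. These 3 ratios overlap in their intervals. The others of the group were narrower and had ratios of 1.91 from 1087382 to 1088073, 2.03 and 2.34 in the regions in between, and 3.16 from 1084894 to 1084965.

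The next regions of at least 400 bp by input depth lay apart from these. The region from 6109815 to 6110216 had 348 IP and 269 input reads and a ratio of 1.46 (interval from 1.24 to 1.72). The region from 30837 to 31481 had a ratio of 1.88, and the region from 1230859 to 1231624 a ratio of 1.51. Among the regions of at least 400 bp, the lowest input RPKM were 4.50, from 403491 to 404295, and 4.58, from 394929 to 395609. Both lie in the group with the most regions, with ratios of 2.56 (195 IP and 86 input reads) and 2.70 (177 IP and 74 input reads).

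The highest ratio among the regions of at least 400 bp was 2.99, from 2415874 to 2416340, where the IP had 164 reads and the input 62 (interval from 2.22 to 4.07). The next were 2.70, given above, and 2.62 from 402792 to 403271 (137 IP and 59 input reads). The region from 545589 to 547203 was the widest of the 5, with 540 IP and 233 input reads and a ratio of 2.62 (interval from 2.24 to 3.07). The region from 499998 to 500754 had a ratio of 2.58. Their input RPKM was between 4.58 and 6.79, under the median of 9.27 of the 285 regions. Their IP RPKM was between 12.4 and 17.5, against a median of 17.2. The regions of highest ratio thus had a low input depth and no high IP depth. They were chosen by a ratio that contains the input, so their low input is a description only.

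**Figure D5:**
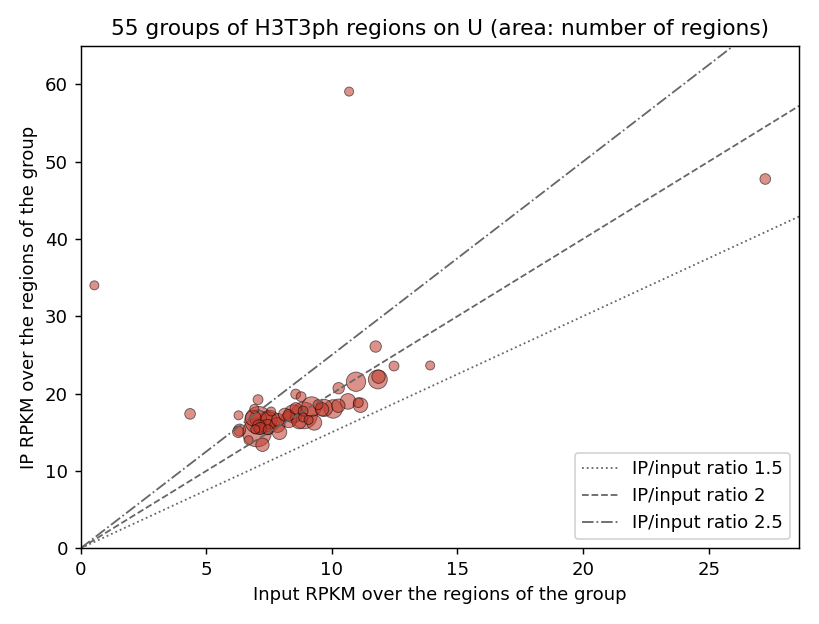
IP RPKM against input RPKM over the regions of each of the 55 groups on U, with the area of a point set by the number of regions and lines at IP/input ratios of 1.5, 2 and 2.5. Of the groups, 52 have ratios from 1.66 to 2.73 and 3 small groups lie above, with ratios of 3.99, 5.52 and 62.2.

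Of the 55 groups, 52 had ratios between 1.66 and 2.73. The 3 others were small and made of narrow regions. The group from 1454391 to 1465542 had 7 regions and a ratio of 3.99 (interval from 2.91 to 5.56). The group from 2954630 to 2956072 had 5 regions of at most 27 bp, with 55 IP reads and 1 input read. Its ratio of 62.2 has an interval from 10.7 to 2499 and says little beyond that the input was almost without reads there.

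The group from 5294443 to 5301867 was different, in that single regions had many IP reads. At 5295617 to 5295703 a region had 141 IP and 4 input reads, a ratio of 39.8 (interval from 15.2 to 148.2). The region from 5301771 to 5301867, which starts 6.07 kb further on, had 172 IP and 5 input reads, a ratio of 38.9 (interval from 16.3 to 121.2). Both are under 100 bp wide and have an IP RPKM of 77.1 and 84.4, against a median of 17.1 over all regions of U. Between them lie regions from 5299415 to 5299525 and from 5300395 to 5300498, with 113 and 106 IP reads but 52 and 50 input reads and ratios of 2.46 and 2.40. The first region of the group, from 5294443 to 5294504, had 40 IP and 6 input reads and a ratio of 7.53. These regions were chosen after their values had been seen.

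Regions wider than 50 bp with a ratio of at least 10, or with no input read, were rare. There were 10 of 855 on U (1.17%), 7 of 2383 on the Het scaffolds (0.294%), 8 of 255 on Uextra (3.14%) and 2 of 2218 in the arms (0.0902%). With more than 30 IP reads and at least 1 input read there were 3 on U and 4 on Uextra, and none on the Het scaffolds or in the arms. The third on U ran from 9143082 to 9143171, where 81 reads came from the IP and 7 from the input. The most reads in such a region were on Uextra, from 5224034 to 5224434, with 541 IP and 10 input reads and a ratio of 61.1 (interval from 33.0 to 128.2). Leaving such regions out moved the ratio of U relative to the Het scaffolds from 1.08 to 1.07, and relative to Uextra from 1.001 to 1.01. No input read was found in 17 regions of U, which were between 1 and 56 bp wide and had between 10 and 20 IP reads.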

How the data were processed

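ChIP-seq was performed by the authors on S2 cells. The amount of DNA per library was 8.5 ng, amplified over 18 PCR cycles, and single reads were 50 nt long. Reads were aligned to dm3 with Bowtie 0.12.5, and those with a single placement were kept. The authors then took out over-amplified reads, corrected the shift between strands, and called regions enriched over input with htSeqTools. The deposited list gives for each region raw read counts of IP and input. It also has RPKM values, computed by the authors from these counts, region width and library size. The Benjamini-Hochberg p-value in the deposited list was used here only to make the list stricter. The list has no header. Columns were given to the IP and the input so that RPKM was higher in the IP, which held in 6387 of 6387 regions for 1 order of the columns. Library totals were taken from counts and RPKM. Listed regions took up 8.13% of all IP reads against 5.19% of all input reads.

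Coordinates count from 1. Read ratios were scaled to the library totals and given 95% exact (Clopper-Pearson) intervals. Ratios between sequences at equal width were averaged on the log scale over 6 classes of width, with borders at 50, 200, 400, 800 and 1600 bp, weighted by the covered length of U, with Wald intervals. Named on U were the 5 widest regions, the 5 of highest ratio, the 5 of highest and the 2 of lowest input RPKM among those of at least 400 bp, the 5 groups with the most regions and the 3 longest gaps. The regions, groups and comparisons were chosen with earlier results of these data known. The code was tested on simulated data. Tools were scipy 1.17.1, numpy 2.4.6 and pandas 2.3.3 under Python 3.11.15. No dm3 sequence was used, so no bases or genes are given.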

Additional observations from a re-analysis of the deposited data

How the results depend on the processing

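No paired analysis was possible because there was 1 library of each kind. A stricter p-value of 0.01 lowered the share of U regions in groups to 69.9% and that with a ratio of at least 2 to 64.7%, and raised the median gap to 667 bp and the median width to 341.5 bp. Joining regions with gaps of at most 500 bp gave 440 regions on U, 25 groups with 43.4% of them, a median gap of 2404 bp and a median width of 371.5 bp. In covered bp per Mb the density of U was 0.244 times that of the Het scaffolds and 14.2 times that of Uextra. The share of regions in groups was 46.2% with gaps of at most 1 kb, 85.3% with 10 kb, 87.1% with at least 3 regions, 59.4% (28 groups) with at least 10 regions, and 84.9% (18 groups) with 25 kb and at least 10 regions.

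The ratio of U relative to the Het scaffolds at equal width stayed above 1 in each alternative, the lowest value being 1.06 with the median over regions. Relative to Uextra it was 0.992 with 12 narrower classes of width, 0.996 without the group of U with the most regions, 0.987 in classes of IP reads and 0.980 with the median over regions. The input RPKM of U relative to the Het scaffolds became 0.996 without that group, and relative to Uextra it turned to 1.09 with the median over regions. Leaving out regions of very high ratio was an alternative chosen after seeing the data. Depth limits the narrow regions most, since 42 regions of at most 50 bp on U held 44 input reads.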
